A study of Mus musculus with 6 samples.

Results

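The target clusters of miR-466i-5p were examined in chimeric AGO2 eCLIP of mouse brain. A target cluster is a stretch of the genome where reads that carry a piece of a miRNA joined to a piece of another RNA pile up, and each cluster is listed under the name of the miRNA found in those reads. All list entries named miR-466i-5p were taken, with no use of their scores or positions. They numbered 3380 of 66068 entries over the 3 libraries. The WT list held 913 of 22074, and the lists of the first and second *Mov10* Deletion library held 1673 of 30526 and 794 of 13468. Within a library no miR-466i-5p cluster was listed more than once under that name, and miR-466i-5p ranked 4, 4 and 3 among 328, 459 and 379 listed miRNAs.

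All libraries came from whole brains of C57Bl/6J mice at P0, the day of birth. There was 1 WT library, and there were 2 *Mov10* Deletion libraries, called Deletion 1 and Deletion 2 here after their replicate numbers. Their mice carried a copy of the gene of the RNA helicase MOV10 that an Emx1-Cre driver can delete, and 1 germline mutant copy. The paper reports strongly reduced MOV10 protein in cortex and hippocampus, not its full absence. Emx1-Cre is mainly active in the excitatory lineage of the dorsal forebrain, while whole brains with all other cells were used. Each immunoprecipitation (IP) had a size-matched input, which entered only through the deposited log2 of IP over input. With 1 WT library no test between the genotypes was possible and none was made. Each interval is a Clopper-Pearson (exact) 95% interval, which covers only the counting error of that library. The read depth behind the lists is not known, and all lists start at a score of 3, a value whose scale was not given in the sources used here. Of 10 brain marker genes, 10, 9 and 10 held a target cluster of some miRNA in WT and the 2 *Mov10* Deletion libraries, and of 10 markers of other tissues 0 did in any of them. On *Mov10* itself lay 11, 9 and 9 AGO2 clusters and 0 target clusters, and these lists give no level by which the deletion could be checked.

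A miRNA is a short RNA that sits in an Argonaute protein and directs it to other RNAs, mostly through pairing of its seed, the bases near its 5′ end. Paired targets are usually sought in the 3′ untranslated end of mRNAs, where Argonaute lowers translation and stability. Members of the large mouse miR-466 family come from several loci and carry runs of repeated letters. *Mir466i*, the gene of miR-466i-5p, is annotated at chr13:17747473-17747593 on the plus strand (GRCm38.p6), within the span of *Cdk13*, a cyclin-dependent kinase gene on the minus strand. Below is the other arm of that hairpin, miR-466i-3p, from RefSeq, with its seed (bases 2 to 8) in capitals. It was itself listed for 1, 3 and 3 clusters, none of them shared with miR-466i-5p.

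miR-466i-3p: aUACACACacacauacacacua

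In every library the cluster of highest score lay on *Mir342*, a miRNA hairpin inside the gene *Evl*. On this hairpin, on *Mir329* and on *Mir362* miR-466i-5p was the only miRNA listed. The mature RNAs under these clusters are shown (RefSeq, GRCm38.p6) because all 3 hold the letters CACAC, here in capitals.

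miR-342-3p: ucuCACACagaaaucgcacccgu

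miR-329-3p: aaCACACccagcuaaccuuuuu

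miR-362-3p: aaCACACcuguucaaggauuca

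On *Mir342* (hairpin chr12:108658620-108658718, plus strand, mm10) there were 2 abutting miR-466i-5p clusters in each library. The WT clusters, chr12:108658675-108658687 and chr12:108658688-108658705, scored 91.4 and 155. Those of Deletion 1, chr12:108658677-108658691 and chr12:108658692-108658712, scored 126 and 129, and the same intervals scored 56.2 and 57.3 in Deletion 2. The highest AGO2 log2 of IP over input there was 6.50, 7.07 and 7.30. Mature miR-342-3p spans chr12:108658680-108658702, so that each pair of clusters together covered the whole mature RNA and ran past both of its ends. In each library 0 clusters listed under miR-342-3p lay on this or any other hairpin.

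On *Mir329* the single cluster scored 30.8 in WT, 14.9 in Deletion 1 and 17.0 in Deletion 2, and held the whole of miR-329-3p in each. Its AGO2 log2 was 3.56, 3.80 and 2.84, with a −log10 p below the limit of 3 in each library. On *Mir362* the cluster scored 5 in WT and 5.97 in Deletion 1, with whole miR-362-3p inside it, and none was listed in Deletion 2. *Mir342* and *Mir329* lay under miR-466i-5p in all 3 libraries, and the highest single score on each was that of WT. Of the abutting *Mir342* clusters, the first scored 91.4 in WT and 126 in Deletion 1.

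Clusters of miR-466i-5p on any miRNA hairpin were few but more frequent than those of other miRNAs. They numbered 7 of 913 in WT (0.767%, 0.309 to 1.57), 11 of 1673 in Deletion 1 (0.658%, 0.329 to 1.17) and 5 of 794 in Deletion 2 (0.630%, 0.205 to 1.46). For all other miRNAs the shares were 0.0662% (0.0362 to 0.111), 0.101% (0.0673 to 0.144) and 0.150% (0.0903 to 0.234), below the miR-466i-5p interval in WT and Deletion 1 and overlapping it in Deletion 2. In all, 15 different hairpins were hit. Apart from the 3 already shown they were *Mir30c-1*, *Mir30c-2*, *Mir9-3*, *Mirlet7a-2*, *Mirlet7b*, *Mirlet7c-1*, *Mir128-1*, *Mir128-2*, *Mir495*, *Mir23b*, *Mir335* and *Mir425*, each in 1 library with scores between 3 and 8. The letters CACAC were searched on the strand of the hairpin after the clusters had been seen. They occur in 75 of 1005 hairpins (7.46%) and in 41 of 1679 mature miRNAs (2.44%) of the RefSeq table, and lay inside 3 of the 7, 3 of the 11 and 2 of the 5 miR-466i-5p clusters on hairpins. Among the 14, 29 and 19 hairpin clusters of other miRNAs they lay inside 0, 0 and 1. A match of letters is a description and no evidence of pairing, and clusters on hairpins were under 1% of the whole list.

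Most miR-466i-5p clusters were of moderate width and low score. Widths ran from 13 to 235 nt in WT with a median of 67 nt, from 9 to 199 nt with a median of 61 nt in Deletion 1, and from 15 to 194 nt with a median of 62 nt in Deletion 2. Other miRNAs had medians of 83, 67 and 69 nt. Between 45.7% and 47.6% of miR-466i-5p clusters were 50 to 74 nt wide in each library. The median score was 4, 4.54 and 4 against 4.68, 4 and 4 for other miRNAs, so that neither was higher in all libraries. Scores of at least 10 were rarer. They made up 6.02% (4.57 to 7.77), 5.26% (4.24 to 6.44) and 4.03% (2.77 to 5.64) of miR-466i-5p clusters against 15.8% (15.3 to 16.3), 8.71% (8.39 to 9.04) and 6.63% (6.20 to 7.07) of the others, intervals that did not meet in any library.

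The clusters were next set against the AGO2 clusters of the same library, which are called from the ordinary reads. An overlap with any AGO2 cluster was found for 65.3%, 56.3% and 53.5% of miR-466i-5p clusters in WT and the Deletion libraries, and for 73.3%, 53.8% and 56.0% of the others. An AGO2 cluster was called enriched where its log2 and its −log10 p both reached 3. Enriched AGO2 clusters underlay 65 miR-466i-5p clusters in WT, 95 in Deletion 1 and 41 in Deletion 2, which is 7.12% (5.54 to 8.98), 5.68% (4.62 to 6.90) and 5.16% (3.73 to 6.94). Over all entries of these libraries the shares were 20%, 14.7% and 14.1%. The miR-466i-5p share was the lower in each library, with intervals below those of miR-124-3p, miR-9-5p and miR-125b-5p, the other miRNAs of the 4 longest lists. In Deletion 1 these had 15.6%, 13.6% and 15.3%, and in Deletion 2 they had 15.9%, 16.5% and 11.9%. At a −log10 p of at least 5 the miR-466i-5p shares were 6.57%, 4.90% and 4.03% against 16.8%, 12.4% and 11.2% over all entries. No cause of the difference was tested.

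**Figure D1:**
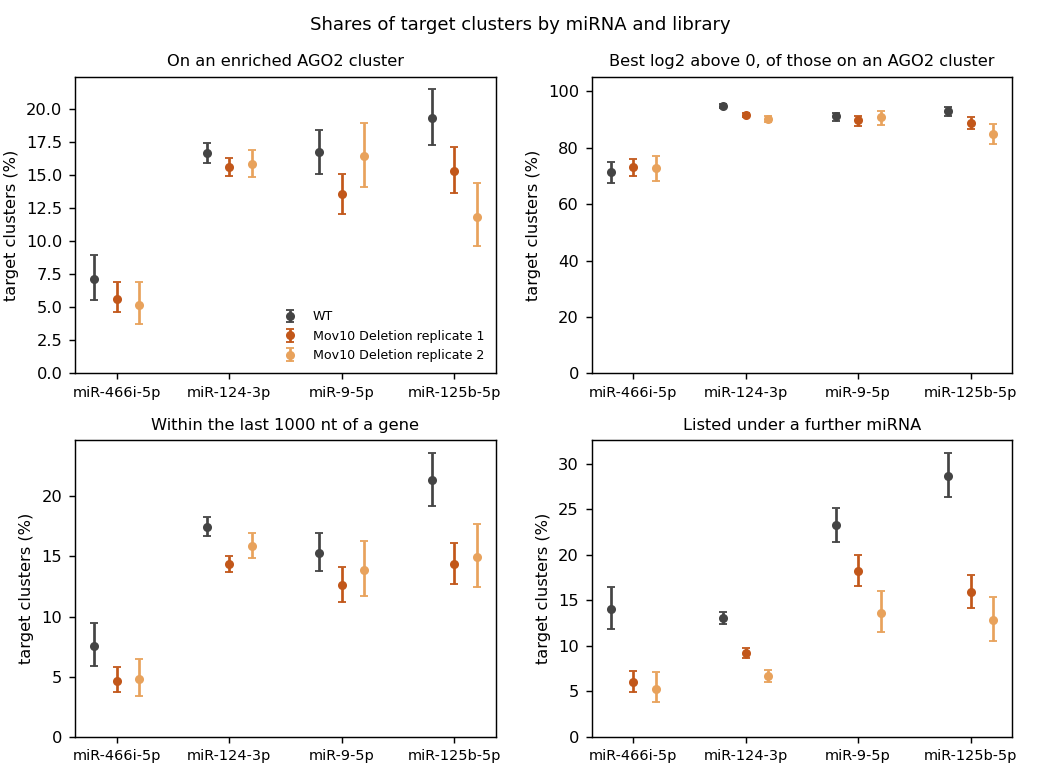
Percent of target clusters (vertical axes, from 0) with each of 4 properties for miR-466i-5p and the 3 other miRNAs with long lists. Points are single libraries, coloured by library, and bars are exact 95% intervals. The miR-466i-5p points lie lowest for AGO2 enrichment, for a positive AGO2 log2 and for the last 1000 nt of genes. For listing under a further miRNA the intervals of miR-466i-5p and miR-124-3p overlap in WT and Deletion 2 and not in Deletion 1.

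The difference was not limited to the call of enrichment. Where a miR-466i-5p cluster overlapped an AGO2 cluster, the highest log2 had a median of 0.89 (quartiles −0.15 and 2.07, n = 596) in WT, 0.92 (−0.08 and 2.02, n = 942) in Deletion 1 and 0.93 (−0.07 and 2.06, n = 425) in Deletion 2. For other miRNAs the medians were 2.19, 2.12 and 2.16. The log2 was above 0, meaning more IP than input, for 71.3% (67.5 to 74.9), 73.0% (70.1 to 75.8) and 72.7% (68.2 to 76.9) of these miR-466i-5p clusters and for 93.7%, 89.7% and 88.6% of those of other miRNAs. The intervals of the 3 miR-466i-5p shares overlapped.

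**Figure D2:**
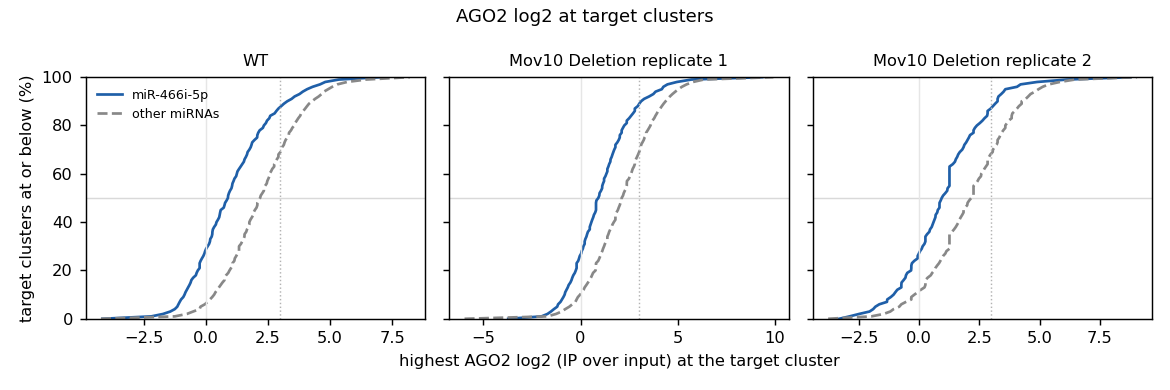
Percent of target clusters (vertical axis) at or below a given AGO2 log2 of IP over input (horizontal axis), for clusters that overlap an AGO2 cluster, in each library. Solid lines are miR-466i-5p, dashed lines are all other miRNAs, and the dotted vertical line marks a log2 of 3. The solid line runs left of the dashed line in each panel, with medians of 0.89, 0.92 and 0.93 against 2.19, 2.12 and 2.16.

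The low share was looked at again within groups of like clusters, which were chosen after seeing the data. Among clusters listed under 1 miRNA alone, 4.59%, 4.26% and 3.59% of those of miR-466i-5p lay on enriched AGO2 clusters, against 12.0%, 9.91% and 10.9% for other miRNAs. Among clusters that scored at least 5 the shares were 12.6% (8.88 to 17.2), 6.79% (5.03 to 8.93) and 7.25% (4.48 to 10.97) against 28.9%, 22.6% and 23.3%. Among those in genes but more than 1000 nt from the end they were 6.45%, 4.86% and 4.34% against 17.5%, 12.5% and 11.5%. Within 1000 nt of the end they were 14.5% (7.17 to 25.04), 20.5% (12.2 to 31.2) and 23.7% (11.4 to 40.2) of 69, 78 and 38 clusters, and the last 2 intervals overlapped those of the other miRNAs, with values of 29.1% and 28.3%. The miR-466i-5p value was the lower in each group. Near the gene end the Deletion libraries had too few clusters for their overlapping intervals to tell whether the shares differ. What lies behind the low share was not tested.

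Nearly all clusters lay in genes, as did those of all miRNAs. A gene on the same strand held 95.8%, 97.0% and 97.7% of miR-466i-5p clusters in WT and the Deletion libraries, against 96.5%, 97.2% and 97.0% of all entries. Protein-coding genes held 840, 1571 and 747 of the clusters when each was given 1 gene, and long non-coding RNA genes held 28, 44 and 24. Of those in sense genes, 96%, 96.9% and 96.3% were in protein-coding genes, against 95.9%, 96.2% and 95.6% for other miRNAs. Long non-coding RNA genes had 3.2%, 2.71% and 3.09% against 1.78%, 1.88% and 2.07%. Clusters on the antisense strand alone numbered 6, 6 and 0, and those outside genes on both strands 32, 45 and 18. Exons of the build used by the files were not at hand, so exons, introns and untranslated regions could not be told apart.

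Within genes miR-466i-5p clusters lay far from the ends of long genes. The host gene had a median length of 176 kb in WT, 234 kb in Deletion 1 and 227 kb in Deletion 2, against 69.7, 91.0 and 82.1 kb for other miRNAs. From the centre of the cluster to the gene end the median was 67.9, 101 and 94.8 kb against 5.49, 12.7 and 10.9 kb. The last 1000 nt of a gene, miRNA genes included, held 69 (7.56%, 5.93 to 9.47), 78 (4.66%, 3.70 to 5.78) and 38 (4.79%, 3.41 to 6.51) miR-466i-5p clusters. For other miRNAs the shares were 19.6%, 15.0% and 16.2%. From the gene start the median was 69.4, 82.6 and 80.5 kb against 43.5, 51.2 and 47.9 kb, a smaller gap than at the end. Chromosome X held 1.31% (0.681 to 2.28), 1.32% (0.826 to 1.98) and 1.26% (0.606 to 2.30) of miR-466i-5p clusters and 3.57%, 3.24% and 3.53% of the others.

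**Figure D3:**
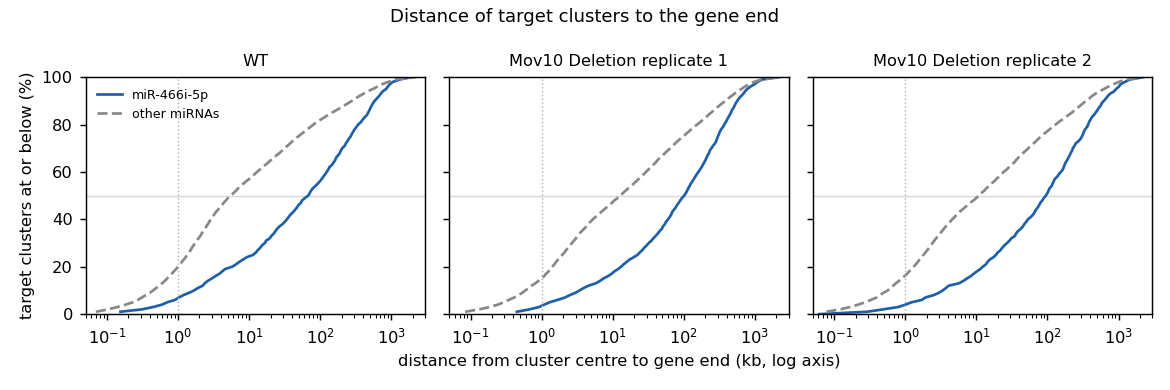
Percent of target clusters (vertical axis) whose centre lies within a given distance of the end of its gene (horizontal axis, kb, log scale), in each library. Solid lines are miR-466i-5p and dashed lines all other miRNAs, the dotted vertical line marks 1 kb, and centres past the gene end are not drawn. The miR-466i-5p medians of 67.9, 101 and 94.8 kb lie to the right of 5.49, 12.7 and 10.9 kb.

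Gene length was also read the other way, as the share of genes with any target cluster that held one of miR-466i-5p. Over all such genes this was 9.89% (632 genes) in WT, 13.6% (1055 genes) in Deletion 1 and 10.6% (572 genes) in Deletion 2. Up to 50 kb it was 4.67%, 5.42% and 4.22%, from 50 to 200 kb 11.02%, 17.0% and 11.4%, from 200 to 500 kb 27.6%, 39.0% and 25.7%, and above 500 kb 48.0%, 69.9% and 52.7%. Genes above 500 kb numbered 196, 216 and 201 and held 2670, 4876 and 1995 entries of all miRNAs. The part of miR-466i-5p among the entries was also larger in long genes. It was 2.40%, 2.69% and 2.83% of the entries in genes up to 50 kb and 8.01%, 9.21% and 11.03% of those in genes above 500 kb. Most genes held a single miR-466i-5p cluster, namely 77.2%, 70.8% and 79.0% of them.

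The genes with the most miR-466i-5p clusters were mainly long neuronal genes. *Tenm2*, which codes for a teneurin adhesion protein, held 16 in WT, 12 in Deletion 1 and 4 in Deletion 2. *Rbfox1*, a splicing factor of neurons, held 6, 20 and 10. *Auts2*, a nuclear regulator of neuronal development, held 5, 13 and 9, and *Nrxn3*, a presynaptic neurexin, held 4, 12 and 10. *Frmd4a*, a scaffold protein of cell polarity, held 4, 17 and 8, *Kirrel3*, an adhesion protein of synapses, held 7, 8 and 5, and *Csmd1*, a large membrane protein, held 6, 2 and 6. These 7 genes measure between 555 and 1643 kb, and the order of the libraries differed from gene to gene. In *Tenm2* the clusters were 16 of 91, 12 of 126 and 4 of 42 entries of all miRNAs. Such entries numbered 75, 155 and 77 in *Rbfox1*, 64, 96 and 42 in *Auts2*, and 61, 110 and 48 in *Nrxn3*. *Frmd4a* had 42, 88 and 30, *Kirrel3* 38, 49 and 23, and *Csmd1* 32, 43 and 22. Over all genes above 500 kb, miR-466i-5p made up 8.01%, 9.21% and 11.03% of entries.

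*Celf4*, an RNA-binding protein of neurons with a 277 kb gene, held 9, 7 and 5 clusters out of 31, 42 and 12 entries. They were spread from 27.2 to 276 kb before its end. The cluster nearest the gene start scored 9.01 and 7.59 in 2 abutting WT pieces, 9.97 in Deletion 1, and 6.58 and 7 in 2 pieces in Deletion 2. Its AGO2 log2 was below 0 in each library, at −0.95, −0.14 and −0.74.

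Gene lists of neural function were counted next. The lists had been written with earlier results of these data known, and long genes are common in them. The length class set beside a list below is that of its median gene. Genes of a list also fall in other classes, so that class is no matched background. Of 30 genes of cell adhesion and axon guidance, 21 held a miR-466i-5p cluster in WT, 25 in Deletion 1 and 18 in Deletion 2. The median length of these 30 genes is 517 kb, and genes above 500 kb held one in 48.0%, 69.9% and 52.7% of cases. In all libraries it was found in *Lsamp* (6, 8 and 3 clusters), *Nlgn1* (3, 5 and 2), *Plxna4* (3, 4 and 2), *Ptprd* (2, 4 and 6), *Dcc* (2, 2 and 2), *Nrp2* (2, 2 and 2), *Ntm* (2, 4 and 2), *Epha4* (1, 2 and 2), *Cntnap2* (1, 5 and 2), *Sema6d* (1, 3 and 1), *Pcdh9* (5, 2 and 2) and *Ncam1* (5, 1 and 1). Neurexins and neuroligins join the 2 sides of a synapse, and DCC, plexins, semaphorins, neuropilins and EPH receptors steer growing axons. As a part of all entries in the list, miR-466i-5p took 7.68%, 8.14% and 9.78%. In genes above 500 kb its part was 8.01%, 9.21% and 11.03%.

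Of 28 ion channel and neurotransmitter receptor genes, 11, 15 and 10 held a miR-466i-5p cluster. Of the list genes with any target cluster that is 39.3%, 53.6% and 38.5%, and the median length in this list is 301 kb. Genes of 200 to 500 kb held one in 27.6%, 39.0% and 25.7% of cases. Genes hit include *Grik2* (696 kb) and *Kcnd2* (514 kb), which lie above that class. The entries of the list were 9.31% (5.99 to 13.6), 7.47% (5.13 to 10.4) and 10.2% (6.04 to 15.8) miR-466i-5p. Within genes of 200 to 500 kb miR-466i-5p took 7.15%, 8.71% and 9.17% of the entries. In all libraries it was found in *Grin2b*, a subunit of the NMDA receptor (4, 4 and 3 clusters), *Grik2*, a kainate receptor subunit (3, 2 and 2), *Kcnd2*, a potassium channel (2, 3 and 1), and *Cacna1a*, the pore of a presynaptic calcium channel (2, 4 and 2). In *Grin2b* the cluster at chr6:135730541-135730638 scored 32.6 in WT and 28.0 in Deletion 1, with 5 miRNAs listed on it, and lay 17.4 kb before the gene end. An adjoining cluster scored 6.87 in WT at chr6:135730490-135730523, and 9.92 and 12.9 in Deletion 1 and Deletion 2 at chr6:135730470-135730523.

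Of 28 transcription factors and chromatin regulators of neural development, 13, 14 and 12 held a miR-466i-5p cluster. Of the list genes with any target cluster that is 48.1%, 53.8% and 44.4%. The median length in this list is 211 kb, in the class that held one in 27.6%, 39.0% and 25.7% of cases. Genes hit include *Zfhx3* (682 kb) and *Auts2* (1106 kb), which lie above that class. Of the entries in this list, 6.83%, 8.87% and 10.7% were miR-466i-5p, against 7.15%, 8.71% and 9.17% in genes of 200 to 500 kb. In all libraries it was found in *Tcf4* (3, 7 and 2), *Zeb2* (4, 3 and 1), *Myt1l* (2, 5 and 1), *Zfhx3* (2, 2 and 1), *Nfia* (1, 3 and 1) and *Foxp1* (1, 1 and 1), besides *Auts2*. Of 33 genes of RNA-binding proteins, 5, 11 and 5 did, with *Celf2* (3, 6 and 5), *Elavl3* (3, 2 and 1) and *Rbfox2* (1, 1 and 1) in all libraries besides *Rbfox1* and *Celf4*. The median length in this list is 78.5 kb. These counts are 15.2%, 34.4% and 16.7% of its genes with any target cluster, against 11.02%, 17.0% and 11.4% of genes of 50 to 200 kb. The WT hits, *Elavl3* (37.1 kb), *Rbfox2* (229 kb), *Celf4* (277 kb), *Celf2* (857 kb) and *Rbfox1* (1528 kb), all lie outside that class. In the RNA-binding list miR-466i-5p took 5.76%, 8.79% and 9.32% of the entries, against 3.53%, 5.03% and 5.36% in genes of 50 to 200 kb. Of 27 cytoskeletal genes, 7, 9 and 4 held a miR-466i-5p cluster, which is 25.9%, 33.3% and 16% of those with any target cluster. The list has a median length of 95.1 kb, and genes of 50 to 200 kb held one in 11.02%, 17.0% and 11.4% of cases. Genes hit include *Ank2* (579 kb) and *Ank3* (494 kb), which lie above that class. Only *Ank3*, the ankyrin of the axon initial segment, held one in all libraries (3, 8 and 2). For cytoskeletal genes miR-466i-5p took 2.86% (1.48 to 4.94), 4.49% (2.90 to 6.60) and 1.89% (0.615 to 4.35) of entries. Its share in the whole lists was 4.14%, 5.48% and 5.90%, inside these intervals in WT and Deletion 1 and above that of Deletion 2. In genes of 50 to 200 kb its share was 3.53%, 5.03% and 5.36%.

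Of 20 genes of the miRNA pathway, 3 held a miR-466i-5p cluster in WT, 6 in Deletion 1 and 0 in Deletion 2, and no gene did in more than 1 library. Of the list genes with any target cluster that is 16.7%, 33.3% and 0%, against 9.89%, 13.6% and 10.6% of all such genes. Of the 159, 178 and 63 entries of the list, miR-466i-5p took 1.89% (0.391 to 5.41), 3.37% (1.25 to 7.19) and 0%. The genes hit were *Ago2*, *Drosha* and *Xpo5* in WT, and *Ago3*, *Ago4*, *Tnrc6a*, *Tnrc6b*, *Pan3* and *Lin28b* in Deletion 1, each with a single cluster. AGO proteins bind miRNAs, *Drosha* and *Xpo5* take part in their making, and the TNRC6 and PAN3 proteins act in silencing.

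Recurrence between libraries was low. Of the WT miR-466i-5p clusters, 24.5% (21.8 to 27.5) overlapped one of the same miRNA in Deletion 1 and 14.6% (12.3 to 17.0) one in Deletion 2. Of those of Deletion 1, 14.2% (12.5 to 15.9) recurred in WT and 7.95% (6.70 to 9.35) in Deletion 2. Of those of Deletion 2, 17.4% (14.8 to 20.2) recurred in WT and 16.8% (14.2 to 19.5) in Deletion 1. The order of the last pair turned with the measure, since at a reciprocal overlap of 50% the shares were 13.6% in WT and 16.8% in Deletion 1, and by shared gene 50.3% and 57.6%. All 133 overlaps between the *Mov10* Deletion libraries had the same coordinates in both, and 0 of those with WT did. Cluster limits of the Deletion libraries may have been set jointly, which was not tested. Recurrence between them and recurrence with WT may therefore be unlike measures. For miR-124-3p the WT clusters recurred in 41.5% and 25.03%, those of Deletion 1 in 37.3% and 19.4%, and those of Deletion 2 in 46.9% and 41.6%, in the same order. The values of miR-466i-5p lay below those of miR-124-3p and miR-9-5p in each of the 6 directions, and below those of miR-125b-5p in 6 as well, though the intervals of miR-466i-5p and miR-125b-5p overlapped for WT in Deletion 2. The lists differ in length and depth, and their part in recurrence was not tested.

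**Figure D4:**
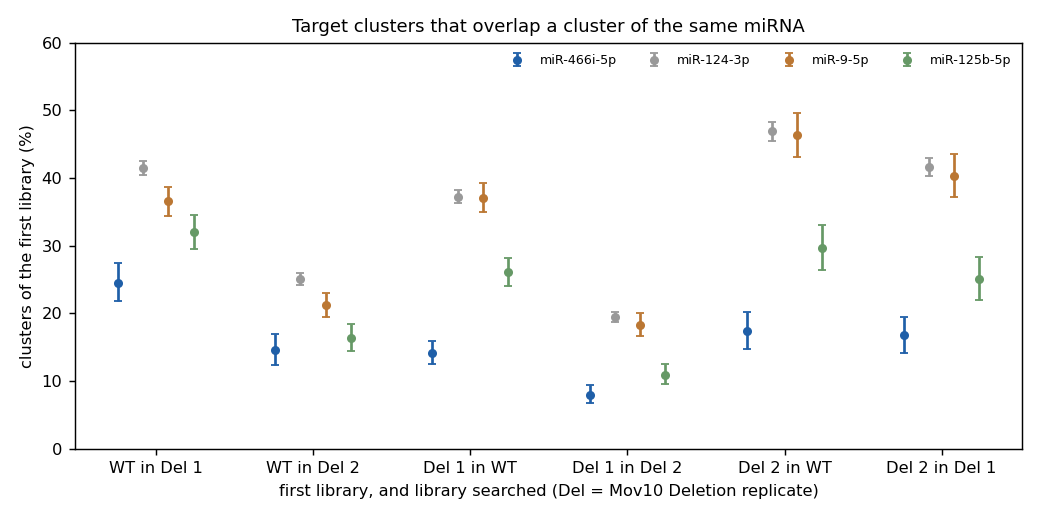
Percent of the clusters of one library (vertical axis) that overlap a cluster of the same miRNA in another library, for the 6 ordered pairs of libraries (horizontal axis). Points are the 4 miRNAs with the longest lists and bars are exact 95% intervals. The miR-466i-5p points, from 7.95% to 24.5%, are the lowest in each pair.

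Merging overlapping miR-466i-5p clusters over the libraries gave 2954 loci. Of these, 2647 were listed in 1 library, with 643 in WT, 1392 in Deletion 1 and 612 in Deletion 2. WT shared 136 loci with Deletion 1 alone and 45 with Deletion 2 alone, and the *Mov10* Deletion libraries shared 44 with each other alone. In all 3 libraries there were 82 loci (2.78%), of which 80 lay in 74 genes. Their median scores of 8.86, 8.17 and 5.99 were above those of loci listed once, at 3.88, 4 and 4. Within 1000 nt of the end of their gene lay 12 of the 82 (14.6%) and 72 of the 2647 (2.72%). Of the 82 loci, 63 lay on an enriched AGO2 cluster in no library and 10 did in all. By library 17.1%, 19.5% and 17.1% of them did, against 20%, 14.7% and 14.1% of all entries, though a locus can hold several clusters. The score was highest in WT at 34 loci, in Deletion 1 at 31 and in Deletion 2 at 17. With 1 WT library and unknown depth and score scale, these counts cannot speak to genotype.

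The 10 recurrent loci with the highest score in their weakest library opened with the *Mir342* clusters in *Evl*. *Meg3*, an imprinted long non-coding RNA, followed with scores of 52.9, 26.2 and 23.8 for its strongest cluster in WT and the Deletion libraries. Its locus, chr12:109565061-109565349 on the plus strand, held 4 clusters in each library and had AGO2 log2 values of 0.58, 0.69 and 1.18. At *Kpna4*, an importin gene, the locus chr3:69085230-69085301 on the minus strand scored 84.6, 52.4 and 16.5. Its AGO2 log2 was −0.81, −0.82 and −0.58, so there was less IP than input signal under the highest WT score of miR-466i-5p outside *Mir342*. The WT library had the highest score at *Meg3* and *Kpna4*.

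The other loci named from this group scored between 9.79 and 45.1. *Irgq*, of the immunity-related GTPase family, had 45.1, 28.5 and 11.5 at chr7:24535397-24535543. *Dand5*, an antagonist of TGF-beta ligands, had 14.9, 15.0 and 10.9 at chr8:84824457-84824513, and *Miat*, a long non-coding RNA of neurons, had 14.5, 18.4 and 10 at chr5:112213665-112213810. *Slc8a1*, a sodium-calcium exchanger, had 12, 11 and 9.95 at chr17:81539668-81539822, and *Arf3*, a small GTPase of the Golgi, had 9.79, 16.3 and 14.9 at chr15:98738539-98738611. *Slc8a1* lay on an enriched AGO2 cluster in WT, with a log2 of 4.46 against 2.71 and 2.08, and *Evl* in all libraries, while the others named did in none. *Miat* and *Arf3* lay 0.477 and 0.95 kb from the gene end, and the others named lay farther away.

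**Figure D5:**
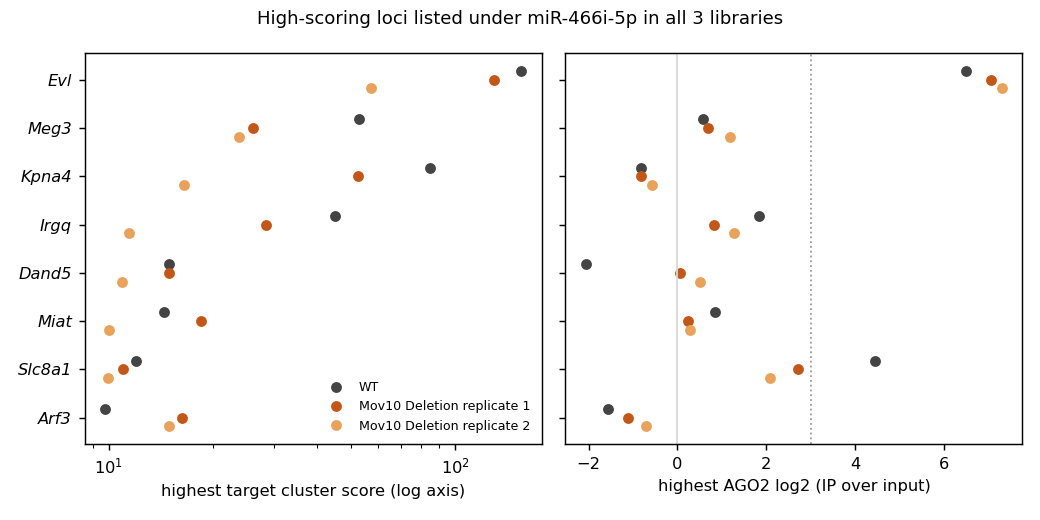
Highest score of a miR-466i-5p target cluster (left, log axis) and highest AGO2 log2 of IP over input (right) at the 8 recurrent loci named in the text, with 1 point for each library. The dotted line marks a log2 of 3. *Evl*, the site of *Mir342*, is highest on both axes, while *Kpna4* has scores of 84.6, 52.4 and 16.5 and log2 values below 0.

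Among loci enriched for AGO2 in all libraries, *Evl* again had the highest log2. *Nrp2*, a receptor of semaphorins, had log2 values of 5.63, 4.28 and 4.28 at chr1:62796517-62796636 with scores of 19.0, 5.26 and 3.81. *Coa5*, a cytochrome oxidase assembly factor, had 4.24, 4.40 and 6.25 at chr1:37417969-37418075 with scores of 24.6, 7.89 and 5.40, and lay 0.938 kb from the gene end. *Cacna1a* had 4.56, 4.84 and 4.06 at chr8:84486575-84486644 with scores of 7.76, 3.86 and 6, with no other miRNA on the cluster in any library, 154 kb before the gene end. *Mdga2*, an adhesion protein that binds neuroligins, had 4.08, 3.75 and 4.59 at chr12:67204196-67204346 with scores of 18.4, 12.0 and 5.90. *Myadm*, a myeloid-associated membrane protein, was among the highest scores in WT and Deletion 1 with 50.6 and 48.6, had 6.29 in Deletion 2, and showed log2 values of 5.28, 4.27 and 3.29 at chr7:3298074-3298227. Strong AGO2 signal thus came with high scores at *Evl* and with low ones at *Cacna1a*.

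The same coordinates could be listed under several miRNAs. A further miRNA shared 128 miR-466i-5p clusters in WT (14.0%, 11.8 to 16.4), 101 in Deletion 1 (6.04%, 4.94 to 7.29) and 42 in Deletion 2 (5.29%, 3.84 to 7.08). Over the entries of other miRNAs the shares were 28.9%, 18.3% and 13.3%, but there a cluster counts once for each miRNA on it. By cluster, 15828 of 18029, 25158 of 27152 and 11742 of 12379 were listed under 1 miRNA only. Entries of miR-124-3p were shared in 13.1%, 9.25% and 6.67% of cases. Shared miR-466i-5p clusters were wider, with medians of 109, 95 and 99 nt against 63, 60 and 61 nt for those listed alone. They lay on enriched AGO2 clusters in 22.7%, 27.7% and 33.3% of cases against 4.59%, 4.26% and 3.59%, and in the last 1000 nt of genes in 17.2%, 14.9% and 21.4% against 5.99%, 4.01% and 3.86%. The score of miR-466i-5p was the highest on 42, 51 and 13 of the shared clusters.

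The most frequent partners were miRNAs with long lists. miR-124-3p was on 70, 40 and 25 of the shared clusters, which is 54.7%, 39.6% and 59.5% of them, and made up 42.2%, 34.8% and 36.8% of all entries. miR-9-5p was on 22, 17 and 5 (17.2%, 16.8% and 11.9% against 9.12%, 6.69% and 6.86% of all entries). miR-125b-5p was on 22, 6 and 5 (17.2%, 5.94% and 11.9% against 6.13%, 5.55% and 5.51%), and let-7c-5p on 16, 11 and 3 (12.5%, 10.9% and 7.14% against 3.52%, 3.32% and 3.07%). A cluster can carry several partners, so that the first share of each pair is of clusters and the second of entries, and in Deletion 1 those of miR-125b-5p were close. miR-342-3p was on 16, 11 and 4, that is 12.5%, 10.9% and 9.52% of shared clusters, though it made up 0.367%, 0.452% and 0.394% of all entries. Read from its own list, 16 of 81 miR-342-3p clusters in WT (19.8%, 11.7 to 30.1), 11 of 138 in Deletion 1 (7.97%, 4.05 to 13.8) and 4 of 53 in Deletion 2 (7.55%, 2.09 to 18.2) had the coordinates of a miR-466i-5p cluster. Among miRNAs with at least 20 entries the next shares were 18.2% for miR-770-5p in WT, 7.89% for miR-329-3p and miR-487b-3p in Deletion 1, and 7.14% for miR-137-3p in Deletion 2, all with intervals that overlapped those of miR-342-3p. The partners printed here, from RefSeq with the seed in capitals, differ in seed except for the let-7 pair, and are shown to set their seeds beside each other.

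miR-342-3p: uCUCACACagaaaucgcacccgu

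miR-9-5p: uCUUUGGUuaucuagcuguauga

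miR-125b-5p: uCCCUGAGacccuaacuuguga

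let-7c-5p: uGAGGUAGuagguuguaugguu

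let-7b-5p: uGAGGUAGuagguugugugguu

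Clusters listed under both miR-466i-5p and miR-342-3p lay in *Meg3* and *Srgap3* in all 3 libraries, as seen after the values were known. *Srgap3*, a GTPase-activating protein of neurite branching, had scores of 78.0, 57.2 and 26.5 for miR-342-3p and 4.77, 4.22 and 7 for miR-466i-5p at a cluster starting at chr6:112946932. *Spock2*, a brain proteoglycan gene, had 10.5 against 6.53 in WT and 8 against 5.60 in Deletion 1 at overlapping clusters. None of the 16, 11 and 4 clusters listed under both lay on an enriched AGO2 cluster, against 22.7%, 27.7% and 33.3% of all shared miR-466i-5p clusters. These counts are small. Neither miRNA had the higher score throughout.

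Other miR-466 names were mostly listed elsewhere. miR-466f-3p had 532, 441 and 146 entries, and 9, 6 and 2 of them had the coordinates of a miR-466i-5p cluster. No other listed member of the family had more than 22 entries in a library.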

How the data were processed

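Chimeric eCLIP was done with an AGO2 antibody on UV-crosslinked, flash-frozen brain, with ligation of miRNA to target RNA on the beads. Per the labels and the methods, the authors handled molecular identifiers with UMI-tools 1.1.1, trimmed adapters with cutadapt 3.2, removed reads that mapped to repeats and rRNA, and mapped the rest to mm10 with STAR 2.7.7a. Known miRNAs were aligned to the unmapped reads with Bowtie 1.2.3, and the remainder of those reads was mapped. Clusters were called with CLIPper. Reads lost to the repeat filter, and miRNAs whose letters resemble each other or repeats, can shift which name a cluster carries, and this could not be checked without reads.

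The deposited AGO2 lists give the log2 of IP over input and a −log10 p per cluster as the authors computed them, and the highest −log10 p is 400. The deposited target cluster lists give a score per cluster and miRNA, which was used as a description only. No counts were used.

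Coordinates were turned to 1-based. Overlap meant 1 nt on the same strand. Gene bodies were taken from RefSeq on GRCm38.p6, whose coordinates are those of mm10. Strand came from RefSeq or, by symbol, from GENCODE, for 45310 of 49997 genes (90.6%), and where both gave one they agreed for 99.4%. A cluster was named by the protein-coding, then the longest, gene on its strand. Code in Python 3.11.15 with pandas 2.3.3, numpy 2.4.6, scipy 1.17.1 and matplotlib 3.10.9 was tested on simulated data. Named loci were the 10 recurrent ones in genes with the highest lowest score, the 5 highest scores and 5 genes with most clusters per library, list genes hit in all 3 libraries, and the 5 recurrent loci with the highest lowest AGO2 log2 among those enriched throughout. The members, lists and rules were chosen with earlier results of these data known. The 3 input libraries were not analysed here on their own. Some genes that these rules pick are not reported here.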

Additional observations from a re-analysis of the deposited data

How the results depend on the processing

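No paired analysis was possible because there was 1 WT library, the genotypes shared 1 replicate number and no result came from a test. Values are given for WT, Deletion 1 and Deletion 2 in this order, and alternatives on 1 miRNA alone, a score of at least 5, distance from the gene end and hairpins were added for the AGO2 share after seeing the data. Of 92 alternatives, 32 moved a value by less than its counting interval and 60 by more.

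The share of miR-466i-5p among entries was 5.06%, 6.16% and 6.41% over distinct clusters and 4.96%, 6.25% and 6.40% over clusters with 1 miRNA. At a score of at least 5 it was 2.81% in WT and 5.90% in Deletion 1. For both *Mov10* Deletion libraries together it was 5.61%, with 6.24%, 6.30% and 5.90% under these settings, and leaving out each in turn gave 5.48% to 5.90%. The share on enriched AGO2 clusters at a log2 of at least 2 was 12.8%, 10.2% and 8.69% (9.69% for both Deletion libraries), against 29%, 21.8% and 19.3% over all entries. With 50% of the target cluster covered it was 4.42% in Deletion 1 and 4.34% for both, against 12.7% over all entries of Deletion 1. With 1 miRNA alone it was 4.59%, 4.26%, 3.59% and, for both, 4.04%. At a score of at least 5 it was 12.6% in WT, 7.25% in Deletion 2 and 6.92% for both, and at a −log10 p of at least 5 it was 4.62% for both. Both together had 5.51%, and leaving out each gave 5.16% to 5.68%.

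At a score of at least 5 the median width was 76, 63 and 65 nt, and with 1 miRNA alone 63 nt in WT. Protein-coding genes alone held 92.0%, 93.9% and 94.1%, and a sense gene held 94.1% of WT clusters that scored at least 5. The share in the last 1000 nt was 5.48%, 3.35% and 3.27% for protein-coding genes and 13.3%, 6.36% and 9.06% at a score of at least 5. It was 4.49%, 2.21% and 2.90% for the last 500 nt and 12.4%, 7.59% and 8.06% for the last 2000 nt. Listing under a further miRNA fell to 3.47% in Deletion 1 at a score of at least 5. With a reciprocal overlap of 50%, WT recurrence was 21.2% in Deletion 1 and 11.8% in Deletion 2, and that of Deletion 1 and Deletion 2 in WT was 11.6% and 13.6%, so that Deletion 2 then recurred less in WT than in Deletion 1 (16.8%). At a score of at least 5, WT recurrence was 38.5% and 21.1%, and that of Deletion 2 in WT 21.0%. Counted by a shared gene in place of an overlap, recurrence of WT in Deletion 1 and Deletion 2 was 65.6% and 50.1%, of Deletion 1 in WT and Deletion 2 48.1% and 41.2%, and of Deletion 2 in WT and Deletion 1 50.3% and 57.6%. The causes were not tested. Depth is unknown, so a cluster missing from a list may have been below its limit.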
